A study of Mus musculus with 8 samples.

Results

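The genes of cholesterol synthesis and of the LXR side of cholesterol efflux were examined in macrophages of mouse epididymal white adipose tissue (eWAT), as 32 genes picked by symbol from 18040 listed in the deposited tables of either diet. They were 9 enzymes of the early mevalonate steps, 11 enzymes of the squalene and sterol steps, 4 genes of SREBP control, 3 genes of sterol transport, esterification and oxysterol formation, and 5 genes of the LXR side. The early set counts Acat1, whose enzyme acts in mitochondria. All 32 were listed in the HFD table (17740 genes) and in the ND table (16436 genes), and all 32 passed the filter on low counts in both. Macrophages were sorted from wild-type C57BL/6J male mice that had been put on a normal diet (ND, labelled as chow) or a high-fat diet (HFD) at 6 weeks of age. The HFD mice had been fed for 8 weeks. Adhesion-related macrophages (ARMs) came from the adipocyte layer of collagenase-digested eWAT, after the adipocytes were broken by vortexing with beads. Stromal macrophages (SMs, labelled NARM) came from the stromal vascular pellet of digested eWAT. Each of the 4 groups had 2 libraries, and a library pooled the cells of 6 HFD mice or 10 ND mice, so the spread between libraries is a spread between pools.

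Cells make cholesterol from acetyl-CoA through mevalonate, farnesyl diphosphate, squalene and lanosterol. When sterols are low, SCAP carries the membrane-bound factor SREBP2 (the product of Srebf2) to the Golgi, where it is cut free and then raises transcription of the synthesis enzymes. When sterols are high, the INSIG proteins hold SCAP in the endoplasmic reticulum. Oxysterols activate the liver X receptors, LXRα (Nr1h3) and LXRβ (Nr1h2), which raise the cholesterol exporters Abca1 and Abcg1 and the ubiquitin ligase Mylip, also called IDOL, which removes the LDL receptor. In macrophages of fat tissue, which take up lipid released by adipocytes, these opposed arms are commonly used as readouts of sterol load.

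RefSeq promoters (GRCm38.p6, the patched mm10 build that the submitters' notes name) were at hand for 26 of the 32 genes. The letters CCAAT, read on either strand in the 250 bases before the start, were in 15 of 16 synthesis enzymes with a promoter (93.8%), against 37.5% of 27025 genes of the table. Of the 4 LXR side genes with a promoter, Mylip alone held them (25%). The sterol regulatory element core TCACNCCAC was in Hmgcs1 only, against 1.22% of all genes. The letters CACGTG were in 6 of the 26 (23.1%, against 6.86%), namely Hsd17b7, Sc5d, Dhcr7, Insig1, Scap and Abca1. The LXR direct repeat (AGGTCA repeated after 4 bases) was in none of the 26 (0.0148% of all genes). These are matches of letters in a short window and not shown binding sites, and LXR elements can lie outside it. In the windows shown, no match overlapped another. Windows of 150 bases from 7 genes are given below with matches in capitals, 3 enzymes for the motifs of the synthesis side, Insig1 and Abca1 for the E-box, and Ch25h and Nr1h3 because they were the genes that passed the test between cell groups. Each window stops short of the first transcript start that GENCODE places there.
Hmgcs1, chr13:119690201-119690350, plus strand: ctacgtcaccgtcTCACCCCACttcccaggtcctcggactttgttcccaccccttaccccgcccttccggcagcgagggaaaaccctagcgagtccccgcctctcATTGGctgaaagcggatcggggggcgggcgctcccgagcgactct
Lss, chr10:76531438-76531587, plus strand: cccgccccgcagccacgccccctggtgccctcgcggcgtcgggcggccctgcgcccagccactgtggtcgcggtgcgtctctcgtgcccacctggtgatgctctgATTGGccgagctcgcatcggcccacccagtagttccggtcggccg
Sc5d, chr9:42264301-42264450, minus strand: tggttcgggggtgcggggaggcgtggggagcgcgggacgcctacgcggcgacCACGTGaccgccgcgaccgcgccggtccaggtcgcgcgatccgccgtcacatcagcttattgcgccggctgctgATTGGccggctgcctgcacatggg
Insig1, chr5:28071213-28071362, plus strand: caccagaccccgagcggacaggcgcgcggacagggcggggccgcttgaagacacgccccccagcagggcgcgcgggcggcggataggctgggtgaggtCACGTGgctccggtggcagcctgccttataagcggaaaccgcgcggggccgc
Ch25h, chr19:34475165-34475314, minus strand: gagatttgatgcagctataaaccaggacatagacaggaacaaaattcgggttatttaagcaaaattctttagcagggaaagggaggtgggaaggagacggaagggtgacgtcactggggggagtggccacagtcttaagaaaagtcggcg
Nr1h3, chr2:91195152-91195301, minus strand: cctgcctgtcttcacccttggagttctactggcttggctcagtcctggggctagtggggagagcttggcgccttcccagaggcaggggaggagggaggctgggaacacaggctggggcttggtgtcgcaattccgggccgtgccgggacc
Abca1, chr4:53159896-53160045, minus strand: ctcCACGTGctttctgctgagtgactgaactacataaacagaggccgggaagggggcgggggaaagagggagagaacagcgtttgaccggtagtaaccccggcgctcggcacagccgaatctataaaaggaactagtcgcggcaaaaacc
The Hmgcs1 window held the sterol regulatory core 137 bases before the start and a CCAAT match 45 bases before it. The windows of Ch25h and Nr1h3 held none of the 4 motifs.

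Estimated counts summed to between 14508824 and 19040133 per library, and the counts of the 32 genes ran from 32 (Tm7sf2 in an ND ARM library) to 16678 (Abca1 in an ND ARM library). Summed TPM of 8 macrophage markers lay between 7000 and 8331 in the 8 libraries, with none of the 8 called between ARMs and SMs in either diet. Adipocyte markers were higher in ARMs, with 10 of 10 called at an adjusted p under 0.05 in HFD and 8 of 10 in ND, no marker at 0, and a summed TPM of 971 to 1096 in HFD ARMs against 276 to 354 in HFD SMs and of 471 to 727 in ND ARMs against 251 to 357 in ND SMs. Endothelial markers were higher as well (6 of 7 in HFD and 1 of 7 in ND), as were those of fibroblasts and progenitors (6 of 7 and 7 of 7). In these sorted pools, fewer cells of a type, less RNA per cell and less RNA taken up from such cells cannot be told apart. The study reports that ARMs acquire adipocyte RNA on contact, from co-cultures with labelled adipocytes and in situ hybridization of Adipoq mRNA. Its part in these marker levels was not tested.

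The levels of these genes split along diet more than along cell group, as the map of member levels shows. By FPKM, every HFD library was below every ND library for 19 of the 32 in ARMs and 18 in SMs. The shares of all genes were 43.2% and 46.4%. For 5 in ARMs and 7 in SMs every HFD library was above, beside 28.5% and 27.4% of all genes. A split by diet was thus common among all genes and not particular to these. The diets came in separate tables, so diet and table cannot be told apart in this split. Most synthesis enzymes were at a higher level in ND libraries, while Ch25h and 4 of the 5 LXR side genes were at a higher level in HFD libraries. Between ARMs and SMs of the same diet, the enzymes stayed close to each other and only Nr1h3 and Ch25h passed the test, both in HFD.

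**Figure D1:**
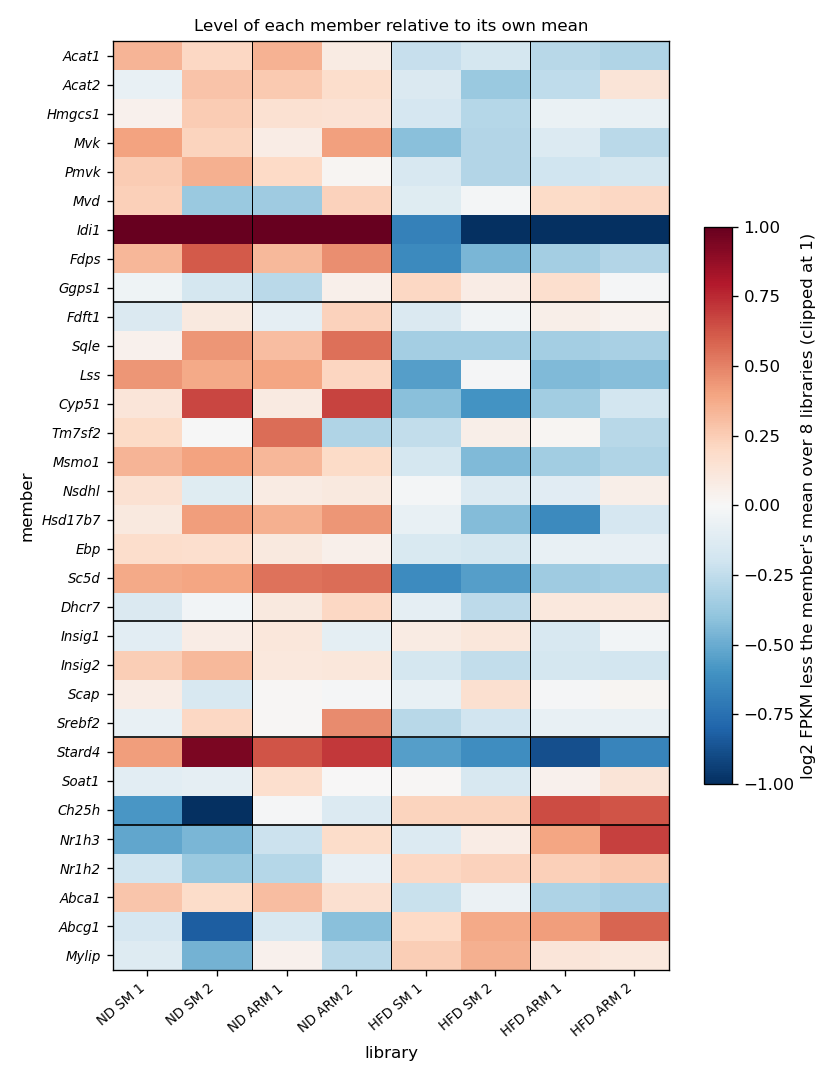
Map of the 32 genes (rows, grouped by role from the early mevalonate steps at the top to the LXR side at the bottom) in the 8 libraries (columns, ND on the left and HFD on the right). Color is the log2 FPKM less the mean of that gene over the 8 libraries, red above and blue below, clipped at 1. Most enzyme rows turn from red to blue from ND to HFD, while Nr1h2, Abcg1 and Ch25h turn from blue to red. Diet and table cannot be told apart here.

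ARMs and SMs of HFD mice were compared first, to ask whether macrophages attached to adipocytes differ in sterol synthesis or efflux genes. Nr1h3 (Entrez 22259) was higher in ARMs, at 8.42 and 10.3 FPKM, than in SMs, at 5.82 and 6.74 FPKM, and the libraries of the groups did not overlap. Its log2 fold change was 0.54 (SE 0.12, 95% interval 0.26 to 0.82; adjusted p = 0.0232, edgeR quasi-likelihood test with Benjamini-Hochberg adjustment over 13337 genes). Ch25h (Entrez 12642), the hydroxylase that makes the oxysterol 25-hydroxycholesterol, was at 13.8 and 13.6 FPKM in ARMs and 10.2 and 10.2 in SMs. Its log2 fold change was 0.39 (SE 0.09, 95% interval 0.19 to 0.60; adjusted p = 0.0252). These were 2 of 32 genes at an adjusted p under 0.05, both higher in ARMs, beside 9.55% of all genes tested in either direction and 6.53% in the higher direction, so their share was not above that of all genes. None of the 32 passed with a fold change over 1.5, beside 4.75% of all genes. DESeq2 called none of the 32 at an adjusted p under 0.05, and by edgeR 8 of the 32 had an unadjusted p under 0.05, beside 23.2% of all genes.

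Both calls depended on settings and libraries. With DESeq2 the adjusted p was 0.0702 for Nr1h3 and 0.192 for Ch25h, and over 14 alternatives it ran from 0.00834 to 0.273 for Nr1h3 and from 0.0156 to 0.192 for Ch25h, always with the higher level in ARMs. Without HFD ARM replicate 1 the values were 0.0628 and 0.185, without HFD ARM replicate 2 they were 0.273 and 0.164, and without HFD SM replicate 1 that of Nr1h3 was 0.0504. The adipocyte, endothelial and fibroblast markers given above rose in the same ARM libraries, as did 2 of 5 pericyte and smooth muscle markers. So did 5 of 6 markers of lipid-associated macrophages (summed TPM 796 to 988 in HFD ARMs against 569 to 575 in HFD SMs, no marker at 0). Trem2 of that list was not called (log2 fold change 0.09, adjusted p = 0.57 by edgeR). The part of all these markers in the Nr1h3 and Ch25h differences was not tested.

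No other LXR side gene passed the test in HFD mice, and their values went both ways. Nr1h2 was level, at 51.6 and 52.6 FPKM in ARMs and 50.6 and 51.4 in SMs, with a log2 fold change of 0.00 (0.001, 95% interval -0.14 to 0.14). Abcg1, the exporter that passes cholesterol to mature HDL, was at 13.1 and 14.7 FPKM in ARMs and 11.2 and 12.7 in SMs (log2 fold change 0.18, SE 0.08, adjusted p = 0.21). Abca1, which loads cholesterol onto lipid-poor apolipoprotein A-I, had the lower values in ARMs, at 65.7 and 64.8 FPKM against 69.8 and 78.1 (log2 fold change -0.21, SE 0.07, adjusted p = 0.0901). Mylip had the lower values too, at 60.1 and 59.5 FPKM against 65.8 and 70.9 (log2 fold change -0.22, SE 0.07, adjusted p = 0.0621). The ARM and SM libraries did not overlap for Abca1, Abcg1 or Mylip, but none of these 3 passed the test. Without HFD SM replicate 1, the library with the lower values of that pair, Abca1 (-0.28, adjusted p = 0.0193) and Mylip (-0.27, adjusted p = 0.0272) would be called lower in ARMs. Over all 14 alternatives the adjusted p ran from 0.0193 to 0.455 for Abca1 and from 0.0272 to 0.398 for Mylip.

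The SREBP control genes gave no call in HFD. Insig1, itself a sterol-repressed target of SREBP2 and a brake on it, came nearest, at 64.6 and 70.7 FPKM in ARMs and 76.6 and 78.1 in SMs (log2 fold change -0.22, SE 0.07, adjusted p = 0.0597). Insig2 (-0.01), Scap (-0.07) and Srebf2 (0.13) had log2 fold changes whose 95% intervals all included 0. Stard4, a carrier that moves cholesterol between membranes, was at 1.71 and 1.99 FPKM in ARMs and 2.15 and 2.05 in SMs (log2 fold change -0.18, adjusted p = 0.456). Soat1, which esterifies cholesterol for storage in droplets, had a log2 fold change of 0.13 (adjusted p = 0.337).

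None of the 20 synthesis enzymes passed the test in HFD mice. Their median log2 fold change was 0.04, with 13 of 20 above 0, beside a median of -0.01 and 48.5% above 0 for all genes tested. The values ran from -0.41 for Idi1, the isomerase of isopentenyl diphosphate, to 0.24 for Dhcr7, the reductase that closes one branch of the pathway. Dhcr7 was at 8.60 FPKM in both ARM libraries and at 7.51 and 6.64 in SMs (adjusted p = 0.153). Sc5d, a sterol desaturase, was at 7.52 and 7.60 FPKM in ARMs and 6.21 and 6.58 in SMs (log2 fold change 0.20, adjusted p = 0.209). The 95% interval lay within a 1.5-fold change either way for 17 of the 20 enzymes, and for 27 of the 32 genes, beside 68% of all genes tested. The intervals of Idi1, Tm7sf2 and Hsd17b7 reached beyond it, so a change of that size could not be told from none for these 3. Idi1 had 58.4 to 115 estimated counts per HFD library, not whole numbers, as was the case for 35% to 35.7% of genes in HFD libraries. Whether Idi1 shares reads with another gene was not tested. Libraries of ARMs and SMs did not overlap for 20 of the 32 genes, 14 higher and 6 lower in ARMs, which is close to the 52.7% of all genes tested.

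**Figure D2:**
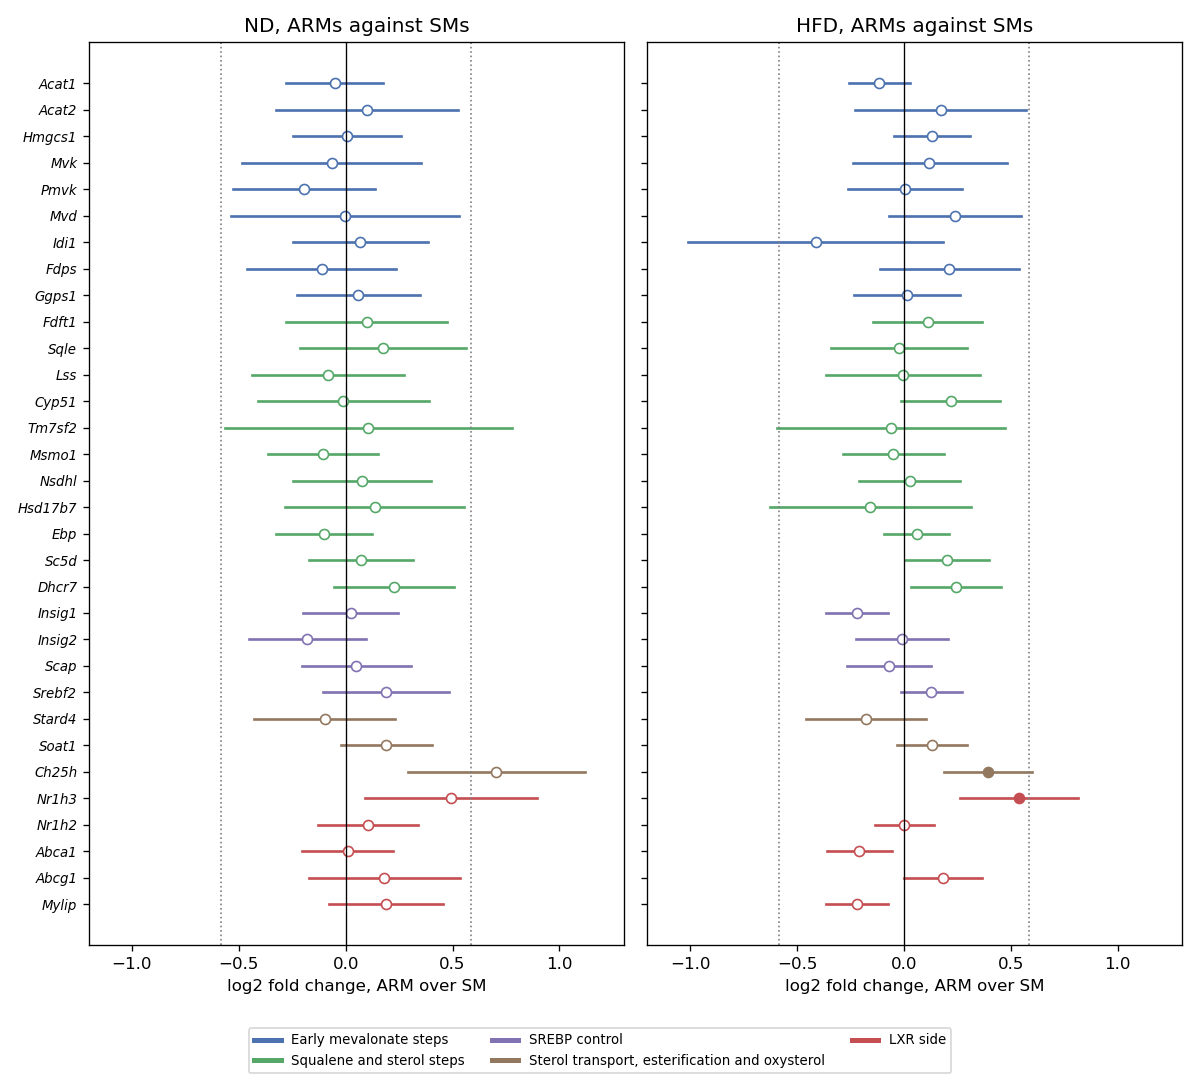
Log2 fold change of ARMs over SMs (x axis) for each of the 32 genes (y axis) in ND (left) and HFD (right), 2 libraries a group, with the 95% interval as a bar and color for the role. Filled points passed an adjusted p under 0.05, dotted lines mark a 1.5-fold change, and the only filled points are Ch25h at 0.39 and Nr1h3 at 0.54 in HFD.

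In ND mice the same comparison gave 0 of 32 genes, both at an adjusted p under 0.05 (4.73% of all genes tested) and with a fold change over 1.5 as well (3.68%). By edgeR 2 of the 32 had an unadjusted p under 0.05, beside 14.9% of all genes, and DESeq2 called none at an adjusted p under 0.05. Those 2 were Ch25h and Nr1h3. Ch25h was at 8.73 and 7.97 FPKM in ARMs and 5.86 and 4.40 in SMs (log2 fold change 0.70, SE 0.19, 95% interval 0.29 to 1.12, adjusted p = 0.0518). Nr1h3 was at 5.52 and 7.29 FPKM in ARMs and 4.48 and 4.66 in SMs (log2 fold change 0.49, SE 0.19, 95% interval 0.09 to 0.89, adjusted p = 0.198). Neither gene overlapped between the ND groups. Of the marker lists, 4 of 6 lipid-associated macrophage genes (summed TPM 856 to 1013 in ND ARMs against 666 to 714 in ND SMs) and 4 of 5 mesothelial genes were higher in ND ARMs too, and their part was not tested. Trem2 (log2 fold change -0.002, adjusted p = 0.997 by edgeR) and Lpl (0.37, adjusted p = 0.0965) of the lipid-associated list were not called. Ch25h crossed the threshold without a filter (adjusted p = 0.0116), in one fit of all 8 libraries (0.0142) and with upper-quartile normalization (0.0474), in a range of 9.3e-04 to 0.351 over 14 alternatives.

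The remaining LXR side genes in ND were spread within their groups. Abca1 was at 101 and 90.9 FPKM in ARMs and 98.7 and 92.6 in SMs (log2 fold change 0.01). Abcg1 was at 8.77 and 7.34 FPKM in ARMs and 8.71 and 5.55 in SMs, and Mylip at 57.1 and 46.0 against 50.7 and 39.8, so that both overlapped between the groups. The median log2 fold change of the 5 LXR side genes was 0.18 in ND, 0.02 to 0.37 when single libraries were dropped, and 0.00 (0.001) in HFD. The enzymes had a median of 0.03 in ND, with 11 of 20 above 0 and values from -0.20 (Pmvk) to 0.23 (Dhcr7), beside -0.02 for all genes. The 95% interval lay within a 1.5-fold change for 19 of the 20 enzymes, all but Tm7sf2, and for 29 of 32 genes, beside 65.4% of all genes. ARM and SM libraries did not overlap for 10 of 32 genes, 5 in each direction, beside 44% of all genes tested.

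No gene of the 32 differed between diets in its ARM against SM change, by the interaction term of one edgeR fit of all 8 libraries (0 of 32 at an adjusted p under 0.05, beside 0.165% of all genes tested). By unadjusted p, 1 of the 32 was under 0.05, beside 7.61% of all genes. This was Mylip, for which the HFD change less the ND change was -0.43 (95% interval -0.78 to -0.07, adjusted p = 0.515). For Ch25h the difference was -0.33 (95% interval -0.76 to 0.10), and for Nr1h3 it was 0.03 (95% interval -0.46 to 0.52). The intervals are wide, so these data neither show a diet-specific change nor show that the changes were equal.

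**Figure D3:**
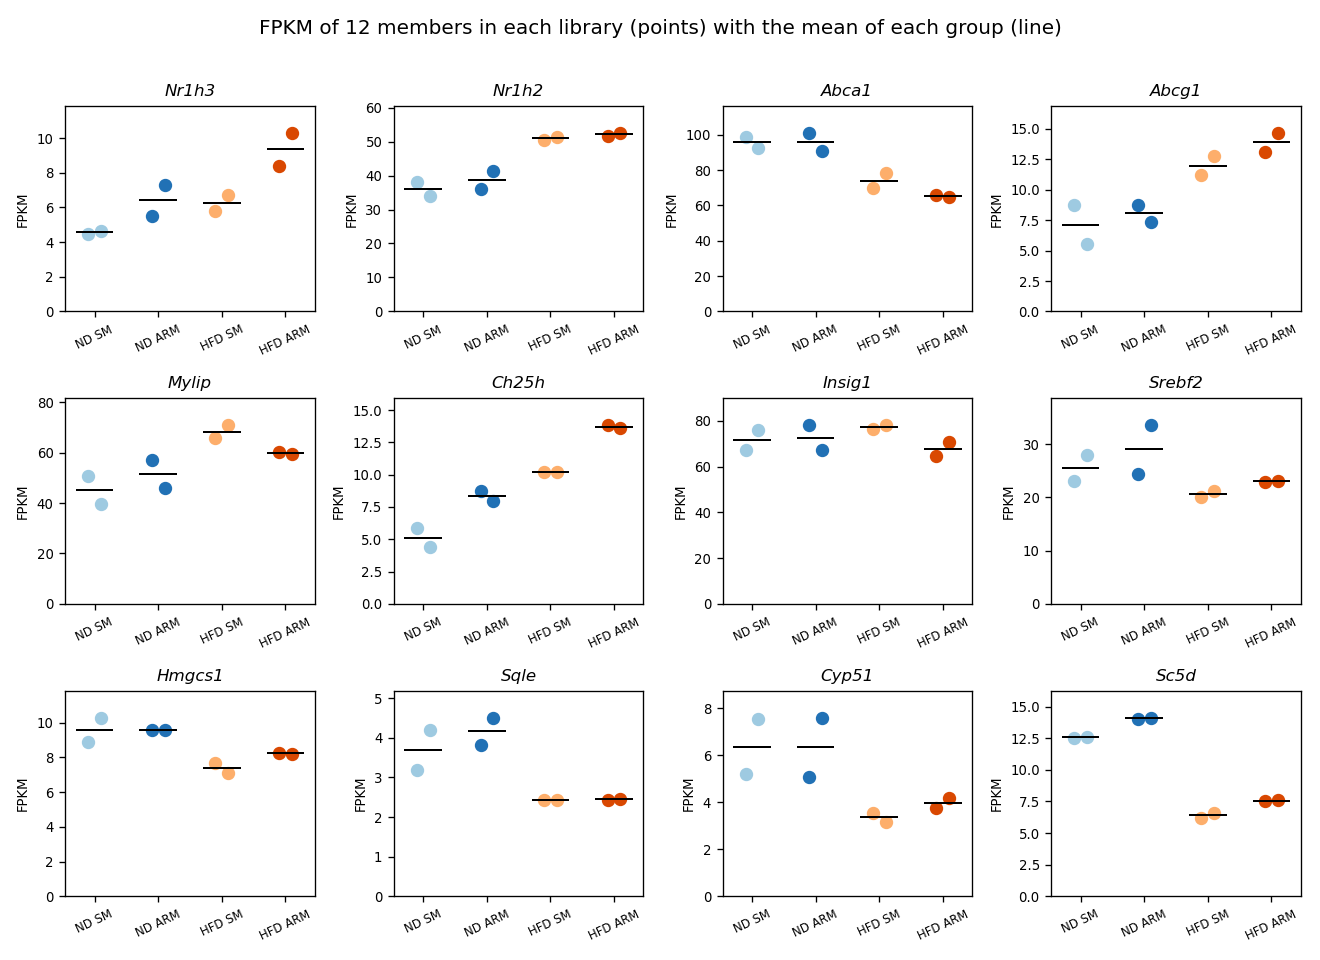
FPKM (y axis, from 0) of 12 of the 32 genes in the 4 groups (x axis), with a point for each of 2 libraries and a line for their mean. Nr1h3 and Ch25h stand higher in ARMs than in SMs of both diets, and Sqle, Cyp51 and Sc5d stand lower in all 4 HFD libraries than in all 4 ND libraries.

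Of 62 other genes around these pathways, 58 were tested, and in HFD 3 were higher and 4 lower in ARMs at an adjusted p under 0.05, while in ND 1 was higher. The all-gene shares at this threshold, 9.55% in HFD and 4.73% in ND, are the background for these counts, so nothing particular to the lists is read from them. The genes that rose in HFD ARMs take up or release lipoprotein lipid. Scarb1, a receptor for HDL, was at 19.2 and 20.3 FPKM in ARMs and 11.9 and 12.1 in SMs (log2 fold change 0.69, SE 0.07, adjusted p = 2.8e-04). Lpl, the lipoprotein lipase, was at 182 and 221 FPKM against 124 and 127 (0.65, adjusted p = 8.9e-04). Olr1, a receptor for oxidized LDL, was at 5.21 and 8.47 FPKM against 3.06 and 4.17 (0.95, adjusted p = 0.0139), and was the gene called in ND too (0.78, adjusted p = 0.00217). Those that fell in HFD ARMs were Osbpl2 (-0.43, adjusted p = 0.00502) and Osbpl9 (-0.31, adjusted p = 0.0113), which are oxysterol-binding protein relatives, Smpdl3a (-0.37, adjusted p = 0.00649), a phosphodiesterase, and Pltp (-0.29, adjusted p = 0.0158), the phospholipid transfer protein. By list in HFD, 1 of 12 other LXR targets and partners rose and 2 fell, 2 of 12 uptake and lysosomal genes rose, 2 of 16 sterol transfer and oxysterol genes fell, and 0 of 9 SREBP processing genes and 0 of 10 isoprenoid branch genes passed. Adipocytes also express Lpl and Scarb1, Lpl is itself in the lipid-associated macrophage list, and the part of either marker list in these differences was not tested.

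Levels in HFD and ND are given as values only, because the diets came in separate tables, so diet and table cannot be told apart. The gene length implied by the counts and FPKM, HFD over ND, lay between 0.939 and 1.09 for the 32 genes, all within 10%, as did 89.5% of the 11458 genes compared. In ARMs the group mean FPKM of 18 of 20 enzymes was lower in HFD, with a median log2 ratio of HFD over ND of -0.37, beside -0.09 and 58.2% lower for all 13358 genes compared. In SMs it was lower for 19 of 20, with a median of -0.47, beside -0.12 and 60.5% lower. Every HFD library was below every ND library for 15 of the 20 enzymes in ARMs (43.2% of all genes) and for 14 in SMs (46.4% of all genes). The same 14 enzymes lay below in both cell groups, beside 35.9% of all genes. They were Acat1, Acat2, Hmgcs1, Mvk, Pmvk, Idi1 and Fdps of the early steps and Sqle, Lss, Cyp51, Msmo1, Hsd17b7, Ebp and Sc5d of the later steps.

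Sc5d, for example, was at 7.52, 7.60, 6.21 and 6.58 FPKM in the 4 HFD libraries and 14.0, 14.1, 12.5 and 12.6 in the 4 ND libraries, ARMs before SMs. The ND level was 1.85-fold the HFD level in ARMs and 1.95-fold in SMs. Cyp51, the lanosterol demethylase, was at 3.75, 4.19, 3.56 and 3.15 FPKM in HFD and 5.06, 7.60, 5.18 and 7.55 in ND. The counts of both genes were not whole in 4 of 4 HFD libraries and whole in all ND libraries, which is a difference between the tables. Squalene epoxidase, Sqle, which is a rate-limiting step of the pathway, lay between 2.44 and 2.46 FPKM in HFD and was at 3.83, 4.51, 3.18 and 4.20 in ND. Fdps, which makes farnesyl diphosphate for sterols and for isoprenoids and had whole counts in both tables, was 1.62-fold higher in ND ARMs and 2.01-fold higher in ND SMs. The largest ratio was that of Idi1, 6.14-fold in ARMs and 4.57-fold in SMs, at 1.10 to 2.11 FPKM in HFD against 6.91 to 9.01 in ND, and its counts were not whole in all 4 HFD libraries and 3 of 4 ND libraries. Without Idi1 the enzyme medians were -0.30 in ARMs and -0.47 in SMs. Over the 12 enzymes whose counts were whole in both tables, the medians were -0.30, with 11 of 12 lower, and -0.42, with 12 of 12 lower.

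The remaining enzymes did not share the split in both cell groups. Nsdhl shared it in ARMs only, at 6.02 and 6.80 FPKM in HFD against 6.91 and 6.97 in ND. Ggps1, which makes geranylgeranyl diphosphate off the sterol path, was at 6.48, 5.71, 6.63 and 6.07 FPKM in HFD and 4.76, 5.97, 5.58 and 5.08 in ND. It was higher in HFD on group means of both cell groups, without overlap between diets in SMs only. Mvd, Fdft1, Tm7sf2 and Nsdhl changed sign between cell groups or scales. Dhcr7 was at 6.64 to 8.60 FPKM in HFD and 7.23 to 9.19 in ND, with a log2 ratio of -0.04 in ARMs and -0.09 in SMs, nearer to 0 than most enzymes.

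The LXR side had the opposite sign in 4 of its 5 genes, with Abca1 as the exception. In ARMs 4 of its 5 genes lay in HFD above every ND library (28.5% of all genes) and in SMs also 4 of 5 (27.4% of all genes), with a median log2 ratio of 0.43 and 0.50. Abcg1 was at 13.1, 14.7, 11.2 and 12.7 FPKM in HFD and 8.77, 7.34, 8.71 and 5.55 in ND, ARMs before SMs, a log2 ratio of 0.78 in ARMs and 0.74 in SMs. Nr1h2 was at 50.6 to 52.6 FPKM in HFD and 33.9 to 41.4 in ND (0.43 and 0.50). Nr1h3 had log2 ratios of 0.54 and 0.45, and Mylip of 0.21 and 0.59. Abca1 went the other way, at 65.7, 64.8, 69.8 and 78.1 FPKM in HFD and 101, 90.9, 98.7 and 92.6 in ND (-0.56 in ARMs and -0.37 in SMs), so the exporters Abca1 and Abcg1, both textbook LXR targets, were split by diet. Abca1 has the more counts of the pair, 12323 to 16678 per library against 499 to 1580. Outside the 5 genes, the LXR targets named above went both ways. Pltp was at 1691 to 2126 FPKM in HFD and 1396 to 1592 in ND. Smpdl3a was at 60.9 to 79.9 in HFD and 78.1 to 84.0 in ND, lower in HFD within each cell group. Lpl was at 182 and 221 in HFD ARMs against 204 and 250 in ND ARMs. In SMs Lpl was at 124 and 127 in HFD against 162 and 189 in ND.

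Among the control genes, Srebf2 reached at most 23.1 FPKM in HFD and was at 23.05 to 33.5 in ND, and Insig2 at 5.60 to 5.88 against 7.12 to 8.29, each with every HFD library below every ND library of its cell group. Insig1 did not share this, with a log2 ratio of -0.10 in ARMs and 0.11 in SMs. Scap was at 7.94 to 9.34 FPKM in HFD and 7.50 to 8.81 in ND. Stard4 gave a large ratio, at 1.71 to 2.15 FPKM in HFD against 4.21 to 6.05 in ND (-1.39 in ARMs and -1.25 in SMs). In the other direction Ch25h was at 13.8, 13.6, 10.2 and 10.2 FPKM in HFD and 8.73, 7.97, 5.86 and 4.40 in ND (0.71 and 0.98). Every HFD library was above every ND library in both cell groups for Ch25h, Nr1h3, Nr1h2, Abcg1 and Mylip, 5 of 32, beside 20.5% of all genes.

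**Figure D4:**
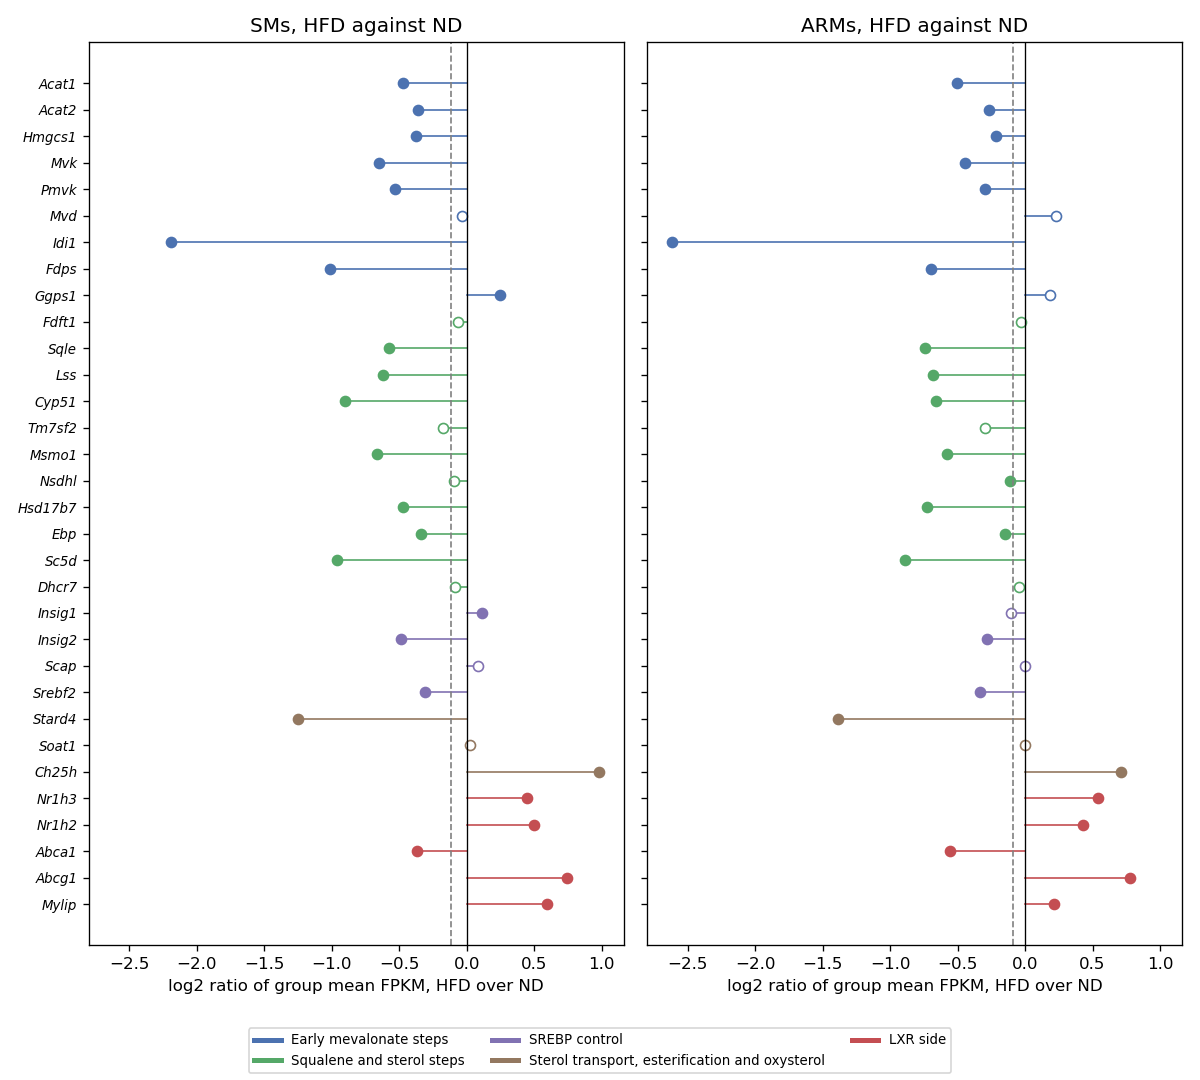
Log2 ratio of the group mean FPKM in HFD over ND (x axis) for each of the 32 genes (y axis) in SMs (left) and ARMs (right), colored by role, with the median of all genes as a dashed line. Filled points have no overlap between the 2 HFD and the 2 ND libraries, and the enzymes lie mostly left of the line (medians -0.47 and -0.37) while the LXR side lies right of it except for Abca1.

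The medians kept their direction on other scales, and those of the enzymes were smaller in size by CPM. With TPM the enzyme medians were -0.35 in ARMs and -0.41 in SMs, beside -0.07 and -0.05 for all genes. With CPM (counts scaled to library size) after TMM scaling over both diets they were -0.24 and -0.33, with 17 and 15 of 20 lower, beside 0.00 (0.002) and 0.02 for all genes, so the medians of the enzymes and of all genes moved up together. The LXR side medians on that scale were 0.53 and 0.65, higher than with FPKM. The CPM medians of the enzymes without Idi1 were -0.17 in ARMs and -0.31 in SMs. Over the 12 enzymes with whole counts in both tables they were -0.16 and -0.29.

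Summed over genes in TPM, a scale on which levels of different genes can be added, the 20 enzymes made up 288 and 289 in HFD ARMs, 281 and 276 in HFD SMs, 378 and 381 in ND ARMs and 366 and 385 in ND SMs. The 5 LXR side genes summed to 426, 429, 436 and 478 in HFD and 435, 406, 407 and 366 in ND, in the same order. The sums of the LXR side overlapped between diets in ARMs, while in SMs both HFD sums were above both ND sums. Abca1 and Mylip, of opposite sign by diet, carried most of these sums. The ratio of the enzyme sum to the LXR sum was 0.676, 0.674, 0.645 and 0.578 in HFD libraries and 0.869, 0.937, 0.9 and 1.05 in ND libraries. All 4 HFD libraries were below all 4 ND libraries in this ratio, while ARMs were above SMs in HFD and overlapped with them in ND. Without the mitochondrial Acat1, the enzyme sums were 219 to 238 in HFD libraries and 290 to 315 in ND libraries.

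**Figure D5:**
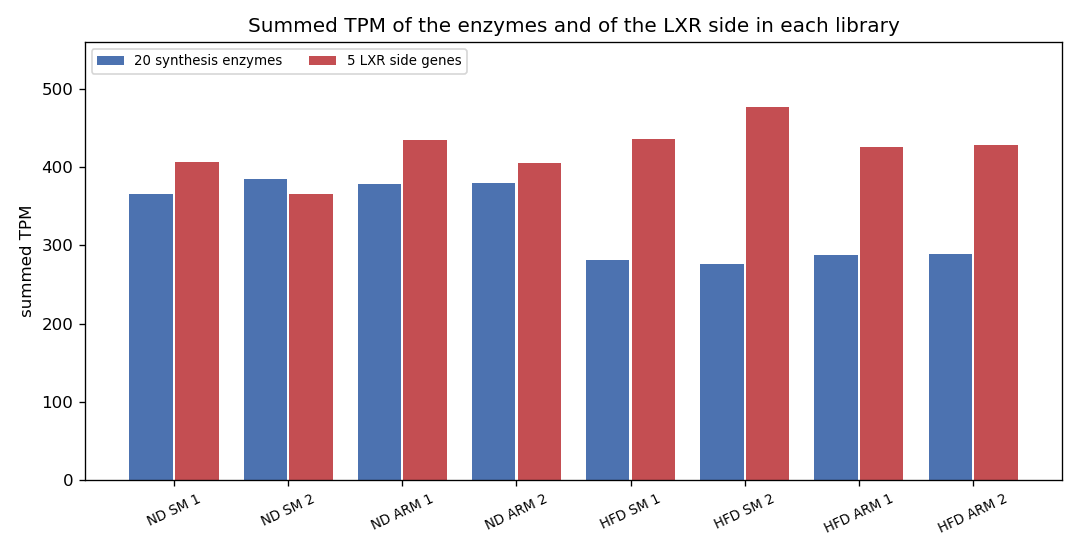
Summed TPM (y axis, from 0) of the 20 synthesis enzymes (blue) and of the 5 LXR side genes (red) in each of the 8 libraries (x axis). The blue bars are 366 to 385 in ND and 276 to 289 in HFD, and the red bars overlap between diets in ARMs but not in SMs.

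Levels per length of transcript differed widely among the 32 genes. Insig1, Abca1, Mylip and Nr1h2 had the highest levels in the HFD libraries, between 50.6 and 78.1 FPKM. Among enzymes, Acat1, which joins acetyl-CoA in mitochondria, and Ebp, a sterol isomerase, were highest, at 24.1 to 37.7 and 22.2 to 28.4 FPKM. Hsd17b7 (0.82 to 1.73 FPKM) and Lss (0.89 to 1.77) stayed low in all 8 libraries, and Idi1 was low in the HFD libraries (1.10 to 2.11). Nr1h3 lay between 4.48 and 10.3 FPKM, below Nr1h2 in every library.

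Within groups, some enzymes differed between the ND replicates in the same direction in ARMs and SMs. Deviations of same-numbered ND libraries also correlated over all genes tested (0.257), so this is not particular to the enzymes. ND replicate 2 was above ND replicate 1 for 14 of 20 enzymes in ARMs and 12 of 20 in SMs by TMM-scaled CPM, beside 52% and 49.4% of all genes. In both cell groups at once it was above for 9 of 20 enzymes (Hmgcs1, Idi1, Fdps, Fdft1, Sqle, Cyp51, Hsd17b7, Sc5d and Dhcr7), beside 29.9% of all genes. For replicates 1 and 2, Cyp51 was at 21.2 and 32.2 CPM in ARMs and 21.8 and 31.7 in SMs, and Srebf2 was at 111 and 154 in ARMs and 105 and 127 in SMs. In HFD only Fdps of the 20 was above in both (25.9% of all genes). Of the 5 LXR side genes, replicate 2 was above replicate 1 for 2 in ND ARMs, 1 in ND SMs, 3 in HFD ARMs and 5 in HFD SMs, beside 50.4% of all genes in either HFD group.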

How the data were processed

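RNA of sorted ARMs and SMs was sequenced at the Beijing Genomics Institute on Illumina machines, 2 libraries per group in 4 groups. The deposited data are 1 table per diet, in which the authors gave an estimated count (expected count), an FPKM and a TPM per gene and library, and group averages that were not used. Counts were not whole (tolerance 0.001) for 35% to 35.7% of genes in HFD libraries and 9.35% to 10.2% in ND libraries. The deposited estimated counts of the diets thus differ in this respect, and whether they were made alike is not known. The aligner and counter are not given in the sources used here. The genome build is mm10 per the submitters' processing notes.

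Counts were rounded and fitted for each diet with edgeR 4.0.16 in R 4.3.3 (TMM, factors 0.989 to 1.02, filterByExpr, quasi-likelihood test, Benjamini-Hochberg over all genes tested). The biological coefficient of variation was 5.55% for HFD and 8.61% for ND. Calls used an adjusted p under 0.05, with or without a fold change over 1.5. Intervals are 95% intervals of the model. Labels do not say that libraries of a group came from separate cohorts, so p-values measure the spread between these pools. An exact permutation test of 2 against 2 libraries cannot give a two-sided p under 0.333. Log2 ratios of diets used group mean values plus 0.1. The pipeline was tested on simulated data. Alternatives were DESeq2 1.42.0, limma 3.58.1 on log2(FPKM + 1) and log2(FPKM + 0.1), library totals, upper-quartile scaling, other filters, one fit of all libraries, a replicate block, the threshold of the study's methods (log2 over 0.6 at an unadjusted p under 0.05) and each library left out. All 32 genes are named, and of 62 further pathway genes those with an adjusted p under 0.05 in either diet. The genes and lists were chosen with earlier results of these data known. Some genes of the pathway are not reported here.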

Additional observations from a re-analysis of the deposited data

Results flagged for a closer look

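Ebp, the sterol isomerase, was picked out because every ARM library was above every SM library in HFD and below every SM library in ND. In HFD it was at 23.9 and 23.7 FPKM in ARMs and 22.5 and 22.2 in SMs, and in ND at 26.8 and 26.0 in ARMs and 28.4 and 28.2 in SMs. The log2 fold change was 0.06 in HFD (SE 0.07, adjusted p = 0.681 by edgeR) and -0.10 in ND (SE 0.10, adjusted p = 0.761). The difference between diets was 0.14 on the log2 scale (95% interval -0.10 to 0.39, adjusted p = 0.888 by the edgeR interaction test), so the opposite signs did not pass a test. Groups of 2 libraries that do not overlap were common, at 52.7% of all genes in HFD and 44% in ND.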

How the results depend on the processing

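With 2 libraries a group, small changes are hard to detect, and no alternative reversed a call. The count of genes at an adjusted p under 0.05 in HFD, 2 in the fit reported, was 0 with DESeq2, limma without a filter, no filter on low counts and one fit of all 8 libraries, and 0 to 3 when single libraries were dropped. With a fold change over 1.5 it ran from 0 to 1 there, the 1 being Nr1h3 without HFD SM replicate 2. In ND, 1 gene (Ch25h) was called with and without the fold threshold under no filter, one fit of all 8 libraries and upper-quartile normalization, and 1 by the threshold of the study's methods. With the replicate block in ND, 1 gene was called with the fold threshold and 2 without it (Ch25h, adjusted p = 9.3e-04, and Nr1h3, 0.0299), and in HFD the block changed no call of the 32. The sources do not say that a replicate number marks shared mice. Deviations of same-numbered libraries correlated at -0.002 over 13337 genes in HFD and at 0.257 over 12441 in ND, so a shared effect of the number is possible in ND, but 2 pairs per diet are too few to settle it. The HFD enzyme median of 0.04 was 0.071 with library totals, 0.086 or 0.083 with limma on log2(FPKM + 0.1) or log2(FPKM + 1), and 0.046 to 0.09 when single libraries were dropped. The HFD median of the LXR side, 0.00 (0.001), was 0.03 with library totals, 0.031 with limma at either pseudocount or without filter, 0.026 with upper-quartile normalization, and -0.008 to 0.014 when single libraries were dropped. The difference of enzyme and LXR medians in HFD ran in the same way from 0.041 to 0.093, and in ND from -0.39 to 0.035, so its sign in ND rested on single libraries. The ND LXR median ran from 0.021 (without ND SM replicate 2) to 0.37 (without ND SM replicate 1). For diet, TMM scaling gave enzyme medians of -0.24 in ARMs and -0.33 in SMs and LXR medians of 0.53 and 0.65, and TPM gave -0.41 for enzymes in SMs. The causes of these shifts were not tested. The other 121 values of this kind stayed within the spread between libraries or within 1.5 times, and of single gene results 874 kept their side of the threshold, 13 lost and 7 gained a call.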
